A study of Saccharomyces cerevisiae with 4 samples.

Results

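The genes described here encode nucleolar and pre-ribosomal assembly factors of budding yeast (Saccharomyces cerevisiae). The 52 members were chosen by name from the families NOP, UTP, DBP, RRP, IMP, NOG and their relatives. No cut on a measured value was used, but earlier results of these data were known when they were chosen. All but UTP20 (YBL004W), a small subunit processome protein with the longest reading frame of the set, had a value on all 4 arrays. These 51 genes stand among 4788 genes with a complete set of values and 6207 reading frames in the table. By their known roles they fall into 20 factors of the small (40S) subunit, 22 of the large (60S) subunit and 9 shared factors, which guide RNA modification or act on both subunits.

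Ribosome assembly starts in the nucleolus, where RNA polymerase I makes a long precursor ribosomal RNA. Small nucleolar ribonucleoprotein particles (snoRNPs) modify and help to fold the precursor, while the small subunit processome and a series of large subunit particles cut it and add ribosomal proteins. In yeast the genes of these factors are known to be transcribed together in growing cells and to be lowered together in many stresses.

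The cells were a slt2 mutant grown at 24 °C in rich glucose medium (YEPD). SLT2 encodes the mitogen-activated protein kinase of the cell wall integrity pathway, and the labels do not give the strain or the kind of allele. Each culture was divided, 1 portion received zymolyase 100T, a preparation that digests cell wall glucan, at 5 units per ml, and RNA was taken from treated and untreated portions at 3 h. Both portions therefore carry the mutation, and no wild type group exists against which its effect could be read. RNA of 2 cultures was compared on 4 two-colour arrays, with the treated RNA in Cy3 on arrays 1 and 3 and in Cy5 on arrays 2 and 4. The source label of the treated channel of array 3 names the wild type instead of the mutant, so means that change side without array 3 are also given without it. SLT2 itself had a value on 0 arrays and could not check the labels.

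A value is the deposited log ratio between the channels, taken as log2, with the sign changed on arrays 2 and 4 so that all arrays run the same way. Neither labels nor table name the numerator, and so the direction of treatment is unknown. Positive values lie on the side of the stress genes HSP12 (2.63 ± 0.58, SD, n = 4 arrays) and CTT1 (2.84 ± 0.58). Negative values lie on the side of the cell wall gene TIP1 (-1.17 ± 0.45). If the ratio was Cy3 over Cy5, negative means lower with zymolyase, and if it was Cy5 over Cy3, higher. Array medians over all tested genes lay between -0.10 and -0.02. In RNA of a whole culture, fewer cells with a transcript and less of it per cell cannot be told apart, and the number of arrays limits every value.

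The assembly factors lay on the TIP1 side as a group by a small amount, with no single gene passing the test. The mean of the 4 arrays was below 0 for 45 of 51 members, against 57.5% of all genes tested, and the median was -0.24, against -0.06 over all genes. Below 0 on all 4 arrays were 20 members, where the background was 18.5%, and above 0 on all 4 were 0 members, where it was 11.8%. In all, 14 of 51 members stood among the lowest 9.98% of all genes by mean. One by one, 0 of 51 were called by limma at an adjusted p under 0.05, against 4.55% of all genes on either side and 0.209% on the TIP1 side. At an unadjusted p under 0.05 there were 5 members, all on the TIP1 side. Over all genes 11.5% passed, a share close to that of the members but counted over both sides. The share on the TIP1 side alone was not counted. These 5 were NOP15, KRR1, NOP1, IMP3 and MAK16, and the adjusted p-values of all members ranged from 0.158 to 0.988 (limma).

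**Figure D1:**
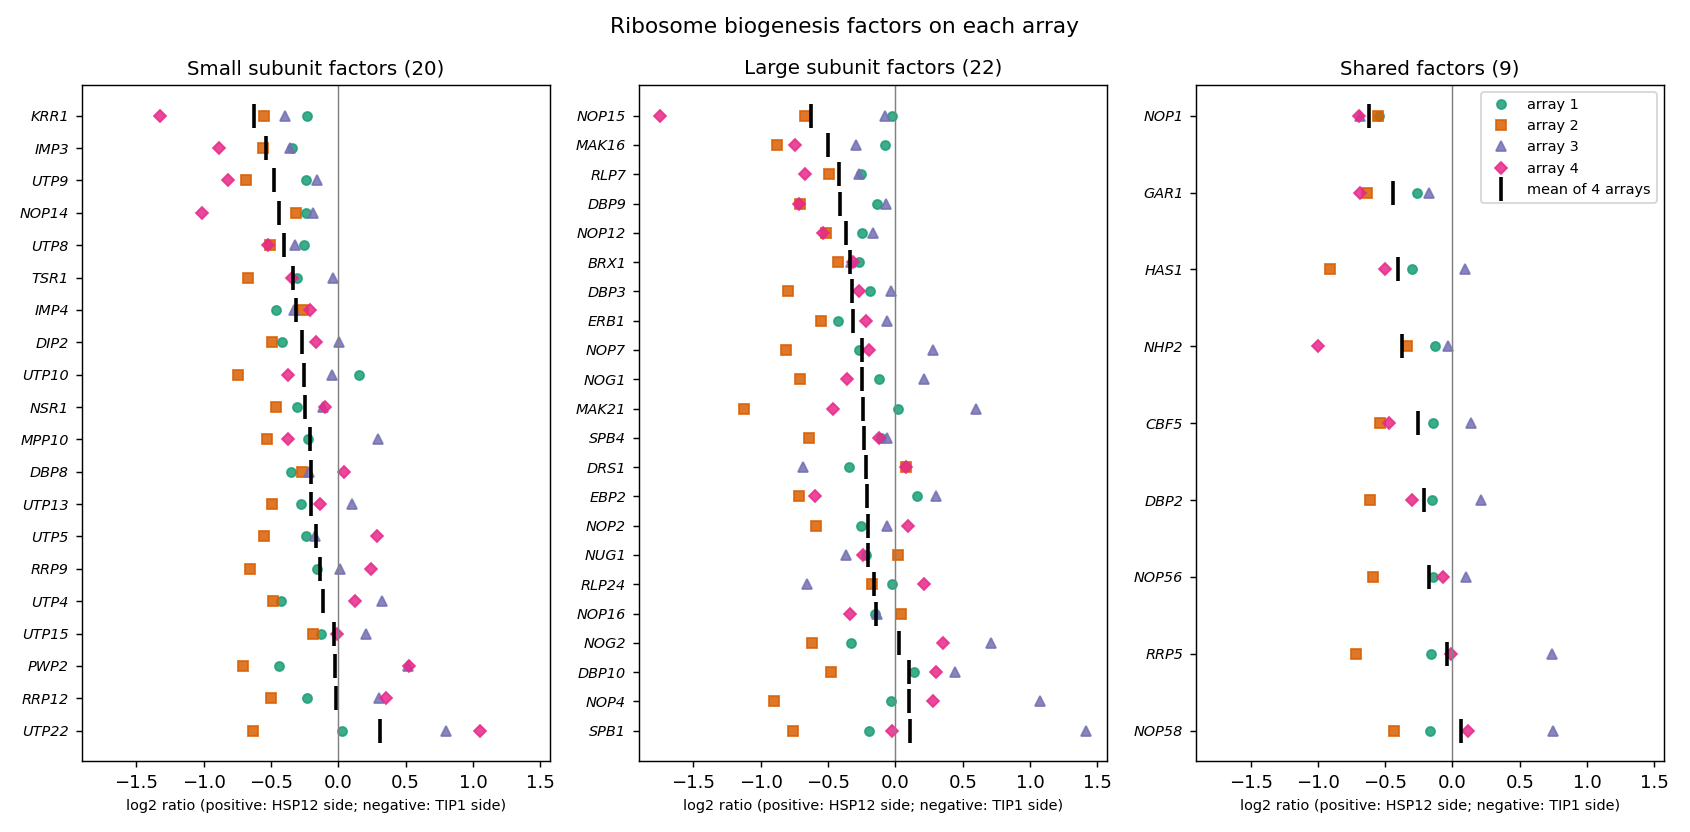
Log2 ratio (horizontal axis) of each assembly factor on arrays 1 to 4 (symbols) with the mean of the 4 arrays (black bar), in 3 panels for small subunit, large subunit and shared factors, sorted by mean. NOP1 holds its 4 arrays together, while NOP15 and KRR1 are drawn out by array 4 and SPB1 and NOP4 by array 3.

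Among the snoRNP proteins, NOP1 (YDL014W) was the most even over the arrays. NOP1 is the yeast fibrillarin, the methyltransferase of the box C/D particles that place 2′-O-methyl groups on ribosomal RNA. It had log2 ratios of -0.54, -0.56, -0.69 and -0.69 on arrays 1 to 4. All arrays lay close together on the same side. The mean was -0.62 ± 0.08 (SD, n = 4 arrays), a size of 1.54-fold, and limma gave an adjusted p = 0.168. The other core proteins of these particles among the members, NOP56 and NOP58, did not share this level. The core protein SNU13, listed here with the snoRNP maturation genes, had a mean of -0.17 ± 0.09.

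NOP56 (YLR197W) had -0.15, -0.59, 0.10 and -0.07 on arrays 1 to 4, with a mean of -0.18 ± 0.30. NOP58 (YOR310C) had -0.16, -0.44, 0.75 and 0.11, and a mean of 0.07 ± 0.51. Both were lowest on array 2 and highest on array 3, and without array 3 the mean of NOP58 was -0.16. NOP1, NOP56 and NOP58 assemble on the same class of guide RNA, and their means spanned -0.62 to 0.07, with SDs that for NOP56 and NOP58 exceed the size of the mean.

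The box H/ACA proteins among the members, which guide pseudouridylation, were all below 0 in the mean. GAR1 (YHR089C) had -0.27, -0.63, -0.18 and -0.68 on arrays 1 to 4, with a mean of -0.44 ± 0.26 (adjusted p = 0.522, limma). NHP2 (YDL208W) had -0.13, -0.34, -0.03 and -1.001, and a mean of -0.38 ± 0.44, or -0.17 without array 4. CBF5 (YLR175W), the pseudouridine synthase itself, had -0.14, -0.54, 0.14 and -0.47, and a mean of -0.26 ± 0.31. In each of the 3 genes the arrays with treated RNA in Cy5, arrays 2 and 4, were lower than arrays 1 and 3.

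The other shared factors act along the processing pathway. HAS1 (YMR290C), an RNA helicase needed for both subunits, had -0.30, -0.91, 0.09 and -0.50 on arrays 1 to 4, with a mean of -0.40 ± 0.42. DBP2 (YNL112W), an RNA helicase whose gene holds a long intron, had -0.15, -0.62, 0.21 and -0.30, and a mean of -0.21 ± 0.34. RRP5 (YMR229C), a large RNA-binding protein that acts in both branches of processing, had a mean of -0.04 ± 0.60, or -0.30 without array 3 and 0.19 without array 2. Array 2 was the lowest for HAS1, DBP2 and RRP5, and array 3 the highest.

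Small subunit factors were below 0 in the mean in 19 of 20 cases, with a median of -0.23. KRR1 (YCL059C), an RNA-binding protein of the processome, had -0.23, -0.55, -0.40 and -1.33 on arrays 1 to 4, with a mean of -0.63 ± 0.49, or 1.54-fold (adjusted p = 0.163, limma). All arrays agreed in side, and array 4 stood far below the others. Without array 4 its mean was -0.39. Without array 3 its mean was -0.70, and the test without array 3 called it (adjusted p = 0.0373, limma). That test weighted the 2 cultures equally, so the effect it tested was not the mean of -0.70. Array 4 or array 2, depending on the pairing, was left alone and counted as a whole culture.

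The Mpp10 complex binds the U3 snoRNA that pairs with the precursor. IMP3 (YHR148W) had -0.35, -0.56, -0.36 and -0.88 on arrays 1 to 4, with a mean of -0.54 ± 0.25 (adjusted p = 0.310, limma). IMP4 (YNL075W) had -0.46, -0.26, -0.33 and -0.21, with a mean of -0.32 ± 0.11. Both genes stayed below 0 on every array, IMP4 with one of the narrowest spreads of the set. MPP10 (YJR002W) had a mean of -0.21 ± 0.36 and was above 0 on array 3.

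The UtpA complex, which joins the precursor while it is being transcribed, had 6 subunits among the members, each with a mean below 0, and a median of -0.21. Its subunit NAN1 (UTP17), which is not among the members, had a mean of 0.02 ± 0.50. UTP9 (YHR196W) had -0.24, -0.68, -0.16 and -0.82 on arrays 1 to 4, with a mean of -0.48 ± 0.33. UTP8 (YGR128C) had -0.26, -0.50, -0.32 and -0.52, and a mean of -0.40 ± 0.13. Both were below 0 on every array, and UTP8 had the smaller spread. UTP10, UTP5, UTP4 and UTP15 had means of -0.25, -0.17, -0.12 and -0.03, and each was above 0 on at least 1 array.

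The UtpB complex, another early module, had 3 subunits among the members. DIP2 (YLR129W) had a mean of -0.27 ± 0.23, UTP13 (YLR222C) -0.20 ± 0.25 and PWP2 (YCR057C) -0.02 ± 0.64. PWP2 shows how arrays can oppose each other, with -0.44 and -0.71 on arrays 1 and 2 and 0.52 and 0.53 on arrays 3 and 4. Its near-zero mean is therefore a sum of opposite values, and it was -0.21 without array 3 and 0.20 without array 2. The UtpB subunits outside the members had means of -0.28 (UTP6), -0.27 (UTP21) and 0.02 (UTP18).

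The other small subunit factors included the highest mean of the class. NOP14 (YDL148C), a processome protein, had -0.24, -0.31, -0.18 and -1.01 on arrays 1 to 4, with a mean of -0.44 ± 0.39, or -0.25 without array 4. TSR1 (YDL060W), a late factor of the pre-40S particle, had -0.30, -0.67, -0.04 and -0.35, and a mean of -0.34 ± 0.26. Both were below 0 on every array. UTP22 (YGR090W), of the UtpC complex, was the farthest member on the HSP12 side, with 0.03, -0.64, 0.80 and 1.05 in array order, its mean being 0.31 ± 0.77 (adjusted p = 0.705, limma). Its arrays 3 and 4 were high and array 2 was low, and its mean was 0.06 without array 4, 0.15 without array 3 and 0.63 without array 2. The nucleolin-like NSR1 had a mean of -0.25, the helicase gene DBP8 -0.20, the U3 protein gene RRP9 -0.14 and the export factor gene RRP12 -0.02.

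Large subunit factors were below 0 in the mean in 18 of 22 cases, with a median of -0.24. NOP15 (YNL110C), an RNA-binding protein of early large subunit particles, had the lowest mean of all members. Its values were -0.02, -0.67, -0.08 and -1.75 on arrays 1 to 4, with a mean of -0.63 ± 0.80, or 1.55-fold (adjusted p = 0.158, limma). Arrays 1 and 3 were near 0, so the mean rests on arrays 2 and 4. It was -0.26 without array 4 and -0.81 without array 3. The test without array 3 called NOP15 (adjusted p = 0.00396, limma). As for KRR1, that test weighted the 2 cultures equally, with array 4 or array 2 alone as a culture, and did not test the mean of -0.81.

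MAK16 (YAL025C), an early assembly factor, had -0.07, -0.88, -0.29 and -0.75 on arrays 1 to 4, with a mean of -0.50 ± 0.38 (adjusted p = 0.386, limma). DBP9 (YLR276C), an RNA helicase, had -0.14, -0.71, -0.07 and -0.72, and a mean of -0.41 ± 0.35. As for NOP15, arrays 2 and 4 were low and arrays 1 and 3 nearer to 0. DBP3 (YGL078C), another helicase gene, had -0.19, -0.80, -0.03 and -0.27, and a mean of -0.32 ± 0.33, or -0.16 without array 2.

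More even values came from RLP7, NOP12, BRX1 and ERB1. RLP7 (YNL002C), a relative of a ribosomal protein that binds the spacer between the large subunit RNAs, had -0.26, -0.49, -0.27 and -0.67 on arrays 1 to 4 (mean -0.42 ± 0.20). NOP12 (YOL041C), an RNA-binding protein, had -0.25, -0.52, -0.17 and -0.54 (mean -0.37 ± 0.19). These genes were below 0 on every array. BRX1 (YOL077C), of the Brix family of assembly proteins, had -0.27, -0.42, -0.33 and -0.32, and its mean of -0.34 ± 0.06 had the smallest SD of all members. ERB1 (YMR049C), of the PeBoW complex, had -0.42, -0.55, -0.06 and -0.22 (mean -0.31 ± 0.22), and its partner NOP7 (YGR103W) had a mean of -0.25 ± 0.45. NOP7 was above 0 on array 3.

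The large subunit members SPB1, NOP4, DBP10 and NOG2 had a mean above 0, each with a wide spread. SPB1 (YCL054W), a methyltransferase of the large subunit RNA, had -0.20, -0.76, 1.41 and -0.02 on arrays 1 to 4, with a mean of 0.11 ± 0.93. Array 3 alone put it above 0, and without that array the mean was -0.33. NOP4, an RNA-binding protein gene (0.10 ± 0.82), the helicase gene DBP10 (0.10 ± 0.40) and the GTPase gene NOG2 (0.03 ± 0.61) were likewise highest on array 3 and lowest on array 2. Without array 3 their means were -0.22, -0.01 and -0.20. NOG2 overlaps the snoRNA gene SNR191 in the annotation, so their signals cannot be told apart with certainty.

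The other large subunit factors had means between -0.25 and -0.14. They were the GTPase genes NOG1 (-0.25) and NUG1 (-0.20), the assembly factors MAK21 (-0.24), EBP2 (-0.21), RLP24 (-0.16, but 0.0044 without array 3) and NOP16 (-0.14), the helicase genes SPB4 (-0.24) and DRS1 (-0.22) and the methyltransferase gene NOP2 (-0.20). MAK21 ranged from -1.12 on array 2, the lowest member there, to 0.60 on array 3. Of these 9 genes, only SPB4 was below 0 on all 4 arrays.

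Small and large subunit factors had medians close to each other. The median of the small subunit factors minus that of the large subunit factors was -0.08, 0.11, 0.02 and 0.11 on arrays 1 to 4, and 0.01 for the mean. On arrays 1 and 2 their medians were -0.25 and -0.52 for the small subunit against -0.17 and -0.63 for the large. On arrays 3 and 4 they were -0.04 and -0.15 against -0.06 and -0.26. The sign of the difference was not the same on every array. Its SD over the 4 arrays was 0.09, against a difference of 0.01 for the mean. The array medians within the classes had SDs of 0.20 and 0.25. Both classes were read on the same arrays, so these 2 SDs do not measure the spread of the difference. Members of a class are not replicates, and no test was attached to this difference.

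Many member means depended on single arrays. Leaving out an array moved the mean of 34 of 51 members by over 1.5 times and turned the sign of 13. Among the 17 that moved less were NOP1, GAR1, IMP3, IMP4, UTP8, UTP9, MAK16, RLP7 and BRX1.

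The arrays differed more than the classes did. Medians of the 51 members were -0.23, -0.55, -0.04 and -0.24 on arrays 1 to 4, while the medians of all genes were -0.02, -0.05, -0.10 and -0.03. Members below 0 numbered 46, 48, 28 and 37. On array 2, 33 of 51 members lay under -0.5, against 6.33% of all genes, whereas on array 3 there were 3, against 13.2% of all genes. Array 3 is the array with the wild type label, and without it 49 of 51 members had a mean below 0 and the median was -0.34. Without array 2, the array with the strongest member values, these were 38 of 51 and -0.16.

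**Figure D2:**
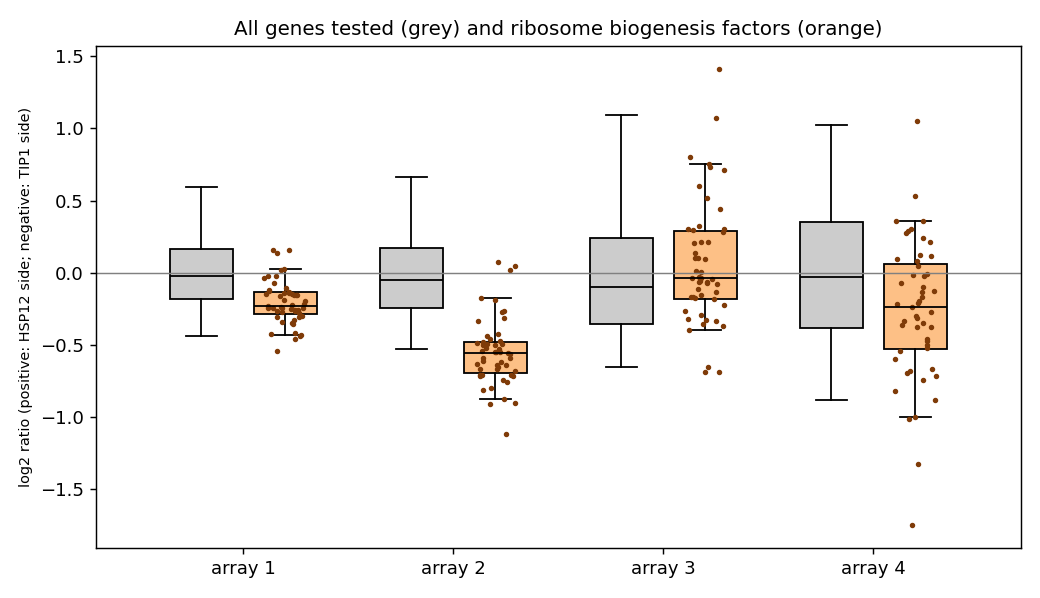
Log2 ratios (vertical axis) of all 4788 genes tested (grey boxes) and of the 51 assembly factors (orange boxes with points) on each array; boxes span the quartiles, the line is the median and whiskers reach the 5th and 95th percentiles. The members sit low and tight on arrays 1 and 2, and spread around the level of all genes on array 3.

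Taken in sets, the mean of arrays 1 and 2 was below 0 for 51 of 51 members, against 57.0% of all genes. The mean of arrays 3 and 4 was below 0 for 34 of 51, against 57.4%. By dye, 45 of 51 members were lower on arrays 2 and 4 (treated RNA in Cy5) than on arrays 1 and 3 (treated RNA in Cy3), which held for 49.9% of all genes. The member median was -0.38 over arrays 2 and 4 alone and -0.10 over arrays 1 and 3 alone. The part of the dyes in this difference was not tested.

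Across the 51 members the arrays ranked genes differently. Pearson's r was 0.44 between arrays 3 and 4 and 0.31 between arrays 1 and 3, but -0.25 between arrays 1 and 2 and -0.47 between arrays 2 and 3. Over all genes with values on both arrays, arrays 1 and 2 had an r of 0.52 and arrays 2 and 3 of 0.30. By rank the contrast was smaller, with Spearman's rho of 0.22 and 0.08 over all genes for these pairs. Over the members it was -0.28 and -0.42. The members thus shared a side on arrays 1 and 2 without sharing an order. These coefficients are descriptions, since genes on an array share its RNA, dyes and normalization.

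Gene length moved with the member values on arrays 3 and 4. Spearman's rho between a member's value and its span from start to stop codon took the values 0.05, -0.26, 0.57 and 0.46 in array order (n = 51 members). Over all genes with a span it took -0.01, -0.18, 0.45 and 0.40. The 26 shorter members (up to 1782 bases) had medians of -0.14 on array 3 and -0.42 on array 4. The 25 longer members had 0.21 and -0.12. On array 2 the order was the other way, with -0.54 for the shorter and -0.62 for the longer members.

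**Figure D3:**
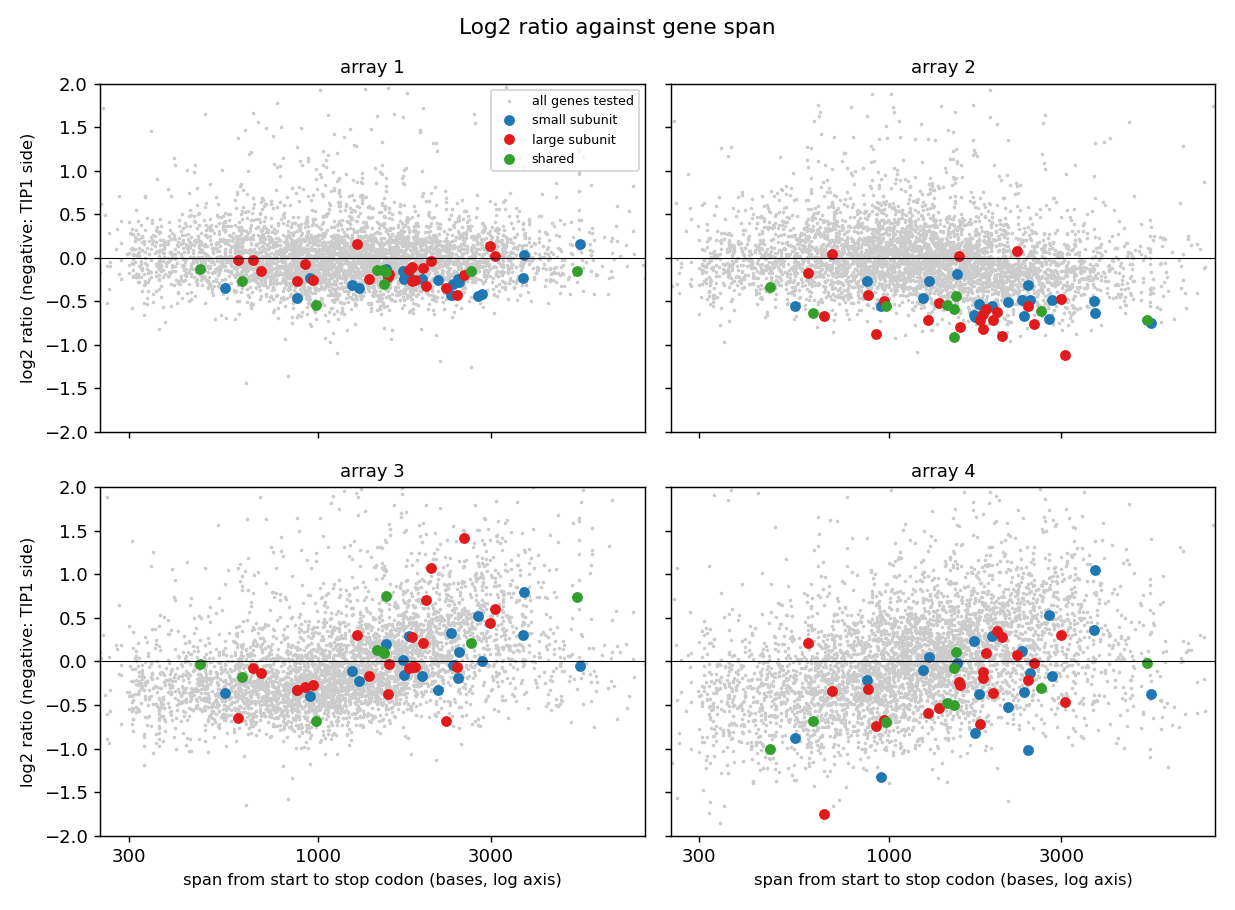
Log2 ratio (vertical axis) against the span from start to stop codon in bases (horizontal log axis) on each array, for all genes tested (grey) and for small subunit (blue), large subunit (red) and shared (green) factors; points outside the axes are not drawn. On arrays 3 and 4 long genes lie higher, members included, and on array 2 most members lie at the lower edge of the cloud at any length.

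With the trend of length removed on each array, the members stayed on the TIP1 side. Their medians were then -0.21, -0.54, -0.14 and -0.40 on arrays 1 to 4, and that of the mean was -0.29, against -0.05 for all genes. UTP22 and NOP58 were the members above 0, and 24 of 51 were below 0 on all 4 arrays, against 18.8% of all genes. ERB1 became even, with -0.43, -0.45, -0.40 and -0.50 on arrays 1 to 4. The limma test still called 0 members, with the lowest adjusted p = 0.0629 for NOP1. At an unadjusted p under 0.05 there were 23 of 51 members, against 21.5% of all genes in that fit. All 23 lay on the TIP1 side, and the 21.5% counts both sides. The small minus large difference stayed small, at 0.05.

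Calls on members depended on how the arrays were tied to cultures. Which arrays belong to the same culture is not labelled, but each culture was hybridised in both dye orientations, which leaves 2 pairings (array 1 with 2 or with 4). Over all genes with values on both arrays, Pearson's r was 0.52 for arrays 1 and 2 and 0.60 for arrays 3 and 4. It was 0.30 for arrays 1 and 4 and 0.30 for arrays 2 and 3. Arrays of the same dye orientation, which share a culture in neither pairing, had 0.48 (arrays 1 and 3) and 0.51 (arrays 2 and 4). Spearman's rho was 0.22 for arrays 1 and 2 and 0.50 for arrays 3 and 4. It was 0.16 for arrays 1 and 4, 0.08 for arrays 2 and 3 and 0.42 for both pairs of the same orientation. Which pairing holds was not tested. The test above took the larger p of both pairings. With arrays 1 and 4 as 1 culture and arrays 2 and 3 as the other, 19 of 51 members were called, all on the TIP1 side, while that fit called 29.6% of all genes. With arrays 1 and 2 as a culture, 0 were called. NOP1 passed when the 4 arrays were taken as separate replicates (adjusted p = 0.0298, limma, background 3.99%) and with a dye term (adjusted p = 0.0375, limma, background 3.86%). Both fits count arrays of the same culture as independent samples, although only 2 cultures were grown. Without array 3, KRR1 and NOP15 were the 2 members called, against 4.07% of all genes. In that fit array 4 or array 2 alone stood for a culture. The shares of all genes in these fits count both sides.

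Other genes of the pathway lay mostly on the same side. Their lists were written from general knowledge, with earlier results of these data known. Of 46 measured other small subunit factors 42 had a mean below 0, with a median of -0.29, and of 45 other large subunit factors 38, with a median of -0.28. Over all genes tested the share below 0 was 57.5%. DIM1 (-0.56 ± 0.27) and RCL1 (-0.55 ± 0.19) of the first list, and NIP7 (-0.61 ± 0.49) and RRP8 (-0.57 ± 0.27) of the second, had the same side on all 4 arrays. Means above 0 were found for 4 and 7 genes of the lists, the highest being MRD1 (0.44) and LOC1 (0.51). DIM1 methylates the small subunit RNA, RCL1 is a processome protein, NIP7 acts in large subunit assembly and RRP8 methylates the large subunit RNA. In both lists 0 genes were called, against 4.55% of all genes on either side. An unadjusted p under 0.05 was found for 5 and 8 genes, against 11.5% of all genes on either side and at most 3.09% on the TIP1 side.

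RNA polymerase I subunits and initiation factors, which make the precursor, had 7 of 11 means below 0 and a median of -0.18. Their share of 63.6% was near the 57.5% of all genes. RPA34 (-0.48 ± 0.35) and RPA12 (-0.47 ± 0.37) were the lowest with 1 side on all arrays. Proteins that mature snoRNPs, with SNU13 counted among them, had 8 of 9 below 0 and a median of -0.19, with BCD1 above 0 at 0.49. A list of regulators of assembly factor or ribosomal protein genes (SFP1, STB3, DOT6, SCH9, IFH1, FHL1 and CRF1 had values on all 4 arrays) had 2 of 7 below 0 and a median of 0.11. The 2 below 0 were FHL1 (-0.26) and CRF1 (-0.16), and none of the 7 kept its side on all 4 arrays. TOD6, with values on 3 arrays, had a mean of -0.12. In each of these 3 lists 0 genes were called, and 1, 1 and 0 had an unadjusted p under 0.05, against 4.55% and 11.5% of all genes on either side.

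Cytosolic ribosomal protein genes, the products of which the factors assemble, had 127 of 131 means below 0, against 57.5% of all genes, and a median of -0.31. Of them 0 were called and 12 had an unadjusted p under 0.05, against 4.55% and 11.5% of all genes on either side. On the TIP1 side at most 3.09% of all genes had an unadjusted p under 0.05. The pattern of the ribosomal protein genes over the arrays differed in its values from that of the factors. Ribosomal protein medians were -0.19, -0.23, -0.35 and -0.49 on arrays 1 to 4, lowest on arrays 3 and 4, while the factors were lowest on array 2. The ribosomal protein genes are short (median span 795 bases, introns included) and the factors long (1782 bases). The part of length in this difference was not tested.

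**Figure D4:**
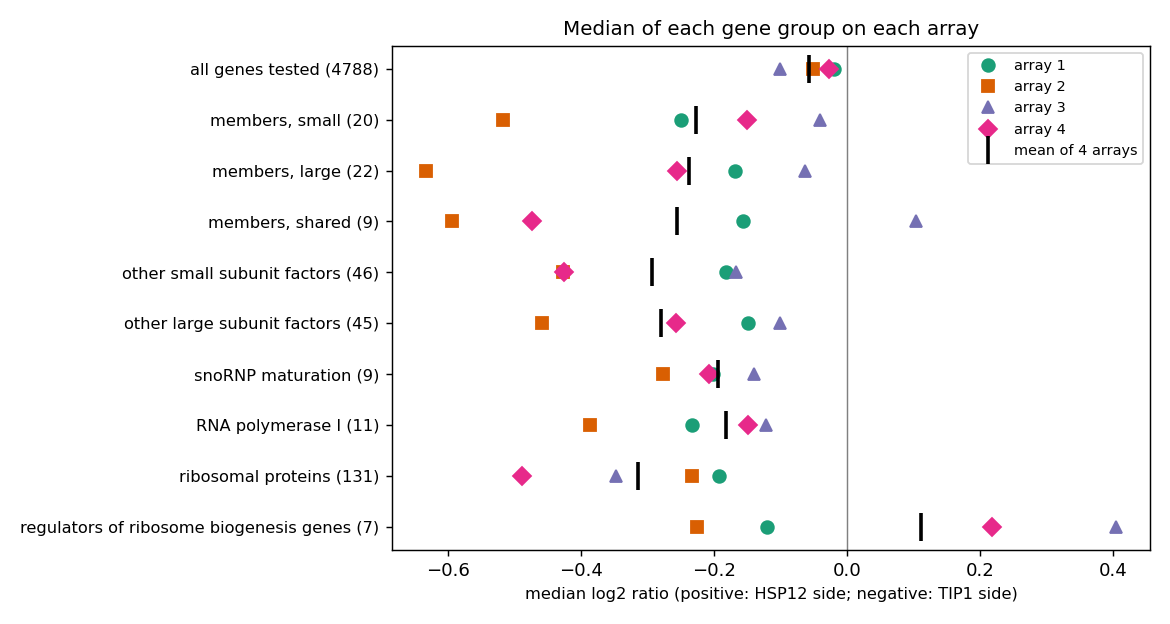
Median log2 ratio (horizontal axis) of each gene group on arrays 1 to 4 (symbols) and of the mean of the 4 arrays (black bars), with the number of genes tested in brackets. Assembly factors and the other small and large subunit factors reach their lowest median on array 2 or share it with array 4, and ribosomal proteins on array 4.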

How the data were processed

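The deposited table held 1 value per reading frame and array. The authors' deposited values are log ratios between channels, read as log2 from their size, and no label or header gives the base, numerator, background correction or normalization. Values on arrays 2 and 4 were multiplied by -1, and no centring was added. Of 6207 reading frames (2 control spots left out) 5677 matched the RefSeq gene table of assembly R64, which gave names and spans. Genes with values on all 4 arrays were tested with limma (version 3.58.1, R 4.3.3) on culture means, taking the larger p of both pairings of arrays into cultures that give each culture both dye orientations, with Benjamini-Hochberg adjustment over 4788 genes and calls at 0.05. The standard error in the pairing of arrays 1 with 2 was 0.244 for every gene, because the prior degrees of freedom were infinite, and its median was 0.103 in the other pairing. SDs are over 4 arrays, which mix cultures and dyes, and no p-value measures a spread beyond these samples. In the main test the larger p of every member came from the pairing of arrays 1 with 2. There the p of a member follows its mean alone, and its own spread over the arrays does not enter. The fit was tested on simulated data, and the outcome depended on the noise model. With independent arrays, the model tried first, few calls were false but most of the smaller changes were missed in most draws. With noise taken from the deviations between arrays, added afterwards, most changes were found but a sizeable share of the calls were unchanged genes. The count of all genes called may thus hold false calls, and 0 called members does not show that no member changed.

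Members and lists were chosen with earlier results of these data known. The text gives array values for up to 8 members of each class with the largest mean size, for members called under an alternative and for the farthest on the opposite side, plus up to 4 genes a list with 1 side on all arrays; RRP5, UTP4 and others are named by their mean. Alternatives covered pairing, dye term, separate arrays, robust variance, fold minimum, centring, scaling, genes with at least 3 values, a loess length correction (span 0.5), array subsets and leaving out each array. Promoter and protein sequences were not used here, so the planned motif and repeat searches were not run.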

Additional observations from a re-analysis of the deposited data

Results flagged for a closer look

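Among the 51 members and the class medians, 2 genes had 1 array far from the other 3, a pattern that chance gives in about 1 of 20 groups. NOP14 had -1.01 on array 4, and SPB4 had -0.64 on array 2.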

How the results depend on the processing

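The count of all genes called was 218, and 1415 with arrays 1 and 4 and arrays 2 and 3 as cultures; leaving out 1 array at a time gave 76 to 195. Members called were 0, and 19 in that pairing, 1 with 4 separate arrays, 1 with a dye term and 0 to 2 when 1 array was left out. The count of members with a mean below 0 (45) lay between 34 (arrays 1 and 3, or arrays 3 and 4) and 51 (arrays 1 and 2), was 41 after centring each array on its median and 49 after scaling, and leaving out 1 array gave 38 to 49. The median of the members (-0.24) lay between -0.10 and -0.38, and all class medians and the small minus large difference moved by less than the SD between arrays. With equal scaling NOP58 was at -0.0113 and SPB1 at -0.0012, and SPB1 was at -0.0318 with the length trend removed. Leaving out 1 array gave -0.16 (without array 3) to 0.2328 (without array 2) for NOP58 and -0.33 to 0.3987 for SPB1, in the same order. For these changes of sign the cause was not tested. Each ratio already sets treated against untreated RNA. No paired analysis was possible because beyond this the arrays form 1 group, with no other group to pair them with. Signal over background could not be judged, as no scanner intensities were used.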

Other observations

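Sorted by enzyme type instead of subunit, the RNA helicase genes (DBP2, DBP3, DBP8, DBP9, DBP10, DRS1, HAS1 and SPB4), whose products unwind the precursor RNA, had 7 of 8 means below 0, a median of -0.23 and a range from -0.41 (DBP9) to 0.10 (DBP10). The GTPase genes NOG1, NOG2 and NUG1, of large subunit maturation, had 2 of 3 below 0 and a median of -0.20. Over all genes 57.5% of means were below 0. DRS1, NUG1 and RLP24 were unlike most members over the arrays: DRS1 had -0.34, 0.08, -0.69 and 0.08, NUG1 -0.22, 0.02, -0.37 and -0.24 and RLP24 -0.03, -0.18, -0.65 and 0.22 on arrays 1 to 4, lowest on array 3, whereas 33 of 51 members were lowest on array 2 and 29 highest on array 3. Over all genes these shares were 22.7% and 20.8%.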
